A study of Mus musculus with 36 samples.

Results

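Nephron progenitors made from mouse embryonic stem cells (iNP) were compared with nephron progenitors sorted from mouse embryonic kidneys at E11.5 (E11.5 NP), by RNA-seq of 4 libraries per group. These are 8 of the 36 libraries of the series, and genes were tested when their normalised value was at least 1 in 4 of the 8 libraries, which kept 14064 of the 22761 genes of the table. The iNP came from E14 mESC, which were formed into embryoid bodies and taken in steps through Activin A, CHIR99021, BMP4, retinoic acid and FGF9, with Y27632 in part of the course, and the bodies of 1 batch of differentiation made 1 sample. The E11.5 NP came from CD1 mice: the kidneys of all embryos of a mouse were pooled, used fresh or after cold storage, and dissociated after the ureter was removed. Cells of both groups were sorted in the same way, as ITGA8 high and PDGFRA low after cells carrying CD31 (Pecam1), EpCAM or RET had been gated out, so the genes of these markers are no finding between the groups. Line against strain, culture against embryo, and cultured age against E11.5 cannot be told apart in this design. E12.5 NP and the stromal progenitors of both sources (iSP from the same mESC line, E11.5 SP from CD1 embryos; 4 libraries each) were used where a result needed a second comparator.

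Nephron progenitors are the cells of the cap mesenchyme that surrounds each ureteric bud tip. They are known for a set of transcription factors that includes Six2, Osr1, Wt1, Pax2, Eya1, Sall1 and the Hox11 genes, they send Gdnf to the bud, and they are held as progenitors by Fgf, Bmp7 and Wnt signals. On induction they switch on Wnt4, Pax8, Lhx1 and Notch ligands, condense, and become the epithelium of the nephron, while the neighbouring stroma is marked by Foxd1.

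The libraries held 27058427 to 42285348 reads on genes for iNP and 24000662 to 30345635 for E11.5 NP, and values are read counts scaled to library size (normalised CPM), in which 3 reads corresponded to 0.0683 to 0.128. All values are these CPM unless a log2 scale is named, a fold change is iNP minus E11.5 NP on log2(CPM + 1), which understates the change of low genes, and a gene was called at an adjusted p (limma, Benjamini-Hochberg) under 0.05. P-values measure the spread between these samples, and nothing states how independent the batches of differentiation were. Of the 14064 genes, 64.7% were called, 35.5% as higher and 29.2% as lower in iNP. This is the background against which each group of genes is read. The median fold change of all genes was 0.07 on the log2 scale, and 0.18 under upper-quartile scaling. Of the genes tested 8365 were called and had no overlap between the 4 values of each group.

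A single library stood apart. Replicate 2 of iNP correlated with the other iNP libraries at r between 0.963 and 0.967 across genes, whereas the other iNP libraries reached 0.997 among themselves. In 19.8% of the genes tested it lay far from the other iNP libraries by Dixon's criterion, against 0.29 to 0.46% for each of the other 3, and the deviation followed gene length. Its genes in the shortest quintile by exonic length lay 0.42 above the other iNP libraries on the log2 scale and those in the longest quintile 0.62 below. The median SD of a gene among the iNP libraries was 0.21 on the log2 scale and 0.085 without this library, against 0.14 in E11.5 NP. Without it, 39.9% of genes were called higher and 33.2% lower. Values without this library are given below for named genes whose call it changed or whose called fold change it moved by more than 1.5 times. Replicate 1 of E11.5 NP also lay apart from its group in 4.84% of genes, against 0.62 to 1.07% for the other 3. It had the lowest values of its group in Cited1, Crym, Fgf20 and Lhx1 and the highest in Lin28a, Sall4 and Gli1, described below.

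**Figure D1:**
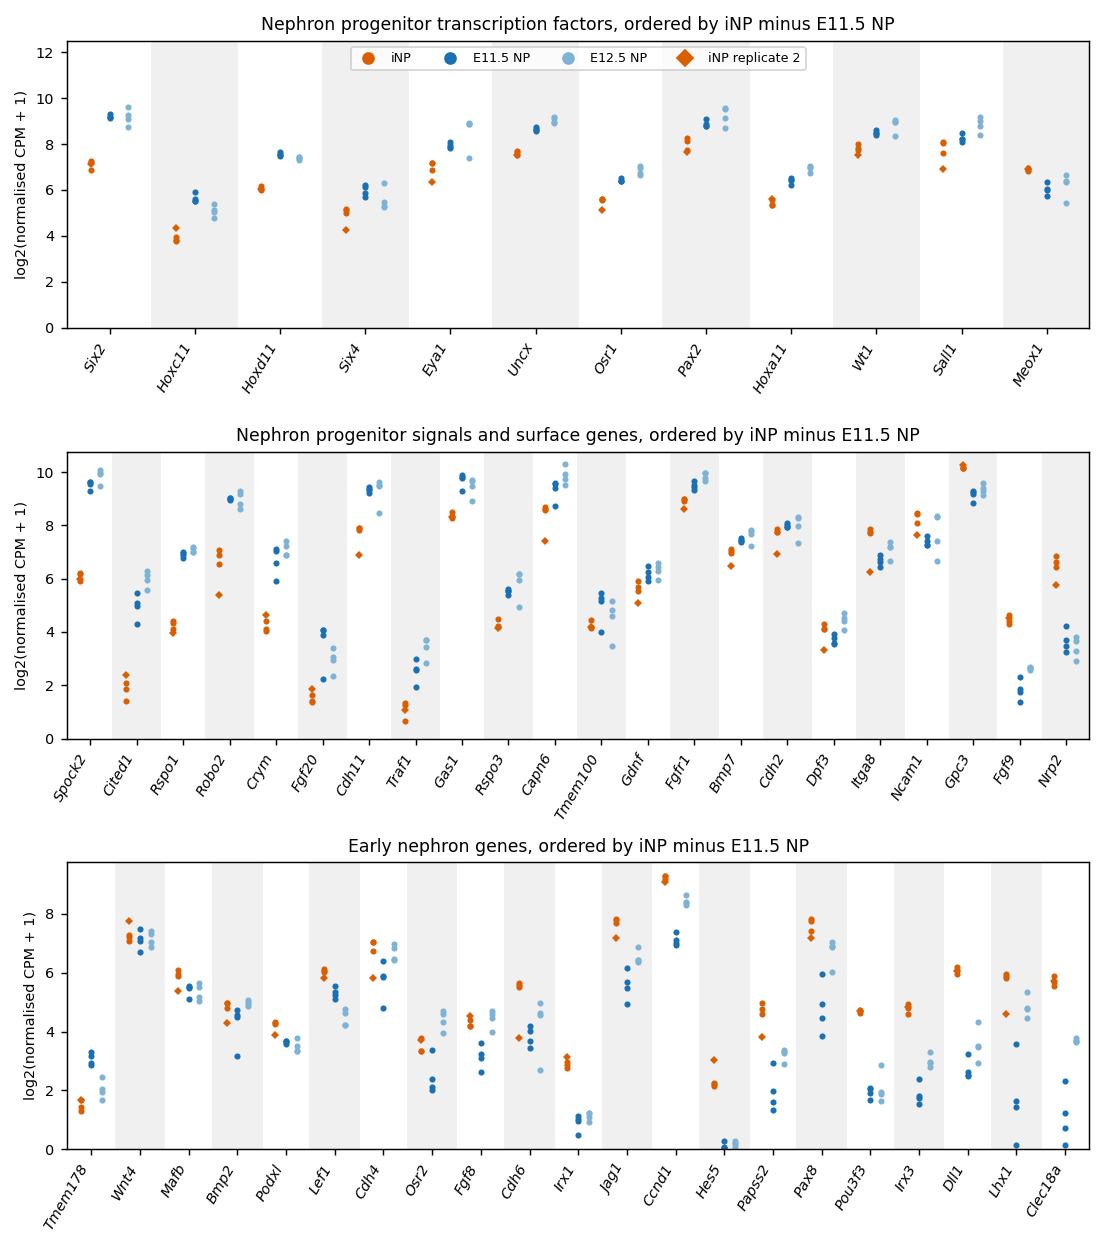
Normalised expression, as log2(CPM + 1), of each library (points) for 12 of the 13 nephron progenitor transcription factors (top), the 22 progenitor signals and surface genes (middle) and 21 of the 22 tested early nephron genes (bottom), in iNP, E11.5 NP and E12.5 NP; diamonds are iNP replicate 2. In the top panel 11 of the 12 genes shown were lower in iNP and in the bottom panel 18 of the 21 shown were higher.

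All 13 transcription factors of the nephron progenitor were expressed in iNP, and all differed from E11.5 NP, 2 as higher and 11 as lower, with a median fold change of -0.94 on the log2 scale. The counts were the same without iNP replicate 2. In a fit of all 36 libraries, with 1 spread per gene for all groups, 35.6% of genes were called higher and 29% lower. There the counts were 1 higher and 6 lower, since Osr1, Wt1, Eya1, Sall1, Meox1 and Uncx had adjusted p between 0.053 and 0.229. Against E12.5 NP, where 25.6% of genes were called higher and 18.7% lower, they were 2 higher and 10 lower. Six2, which keeps progenitors undifferentiated, was at 116, 141, 147 and 152 in iNP replicates 1 to 4 and at 579, 557, 641 and 584 in E11.5 NP. The groups did not overlap, and Six2 fell by 2.08 on the log2 scale (SE 0.10, adjusted p = 2.7e-07). Per kilobase of exon, Six2 was the highest of the 13 in both groups, at 278.5 in E11.5 NP and 65.7 in iNP. Its lead over Uncx, the next in both, went from 278.5 against 126.6 in E11.5 NP to 65.7 against 61.9 in iNP. Among all genes tested, 100 had a higher value per kilobase than Six2 in E11.5 NP and 672 in iNP.

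Pax2, a paired-box factor needed for the intermediate mesoderm and the cap, was at 210.2, 201, 303 and 281 in iNP, against 467, 435, 435 and 544 in E11.5 NP. No iNP library reached the lowest E11.5 NP library, and the fold change was -0.93 (SE 0.15, adjusted p = 4.0e-04). Wt1, the zinc-finger factor required for cap survival, read 215, 185, 253 and 229 against 333, 355, 354 and 396, a fold change of -0.71 (adjusted p = 3.3e-04). The Eya1 coactivator fell by 1.05, Osr1, the earliest marker of this lineage, by 0.94, Six4 by 1.09 and the homeobox gene Uncx by 1.03 on the log2 scale. The groups of none of these 4 genes overlapped.

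Sall1, a repressor that acts with Six2, had the smallest loss. Its values were 194, 119, 266 and 269 in iNP and at 273, 301, 297 and 357 in E11.5 NP, with iNP replicate 2 the lowest, and the fold change of -0.59 (adjusted p = 0.048) became -0.34 (adjusted p = 0.029) without that library. The call was lost without iNP replicate 1 or without any one of the E11.5 NP libraries, with adjusted p between 0.066 and 0.118, and also under quantile or upper-quartile scaling and without the filter on low values. Among the higher genes, Meox1, a homeobox gene of somite and cap, was at 118 against 65.3, a fold change of 0.86.

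The changes of the 13 factors were tested against those in stromal progenitors from the same mESC line. For a gene, the difference between the change in NP cells and the change in SP cells was fitted over 16 libraries. Of 14846 genes 29.3% were called, 17.4% as a positive and 11.9% as a negative difference. The paper's protocol makes iNP and iSP in the same culture, and both embryonic types were sorted from kidneys. Whether NP and SP libraries shared a batch or a pool is not given, and the fit treats them as independent. Under quantile normalisation the split of the calls turned, from 2583 positive and 1761 negative to 2142 and 2347. Of the 13 factors, 10 had a negative difference, 1 (Sall1, 1.29) a positive one, and Hoxd11 (-0.15, adjusted p = 0.42) was among those not called. The largest negative differences were in Uncx (-2.49) and Meox1 (-2.46). A negative difference is a larger loss in NP cells or a larger rise in SP cells. For Uncx and Meox1 it went beyond the change in iNP (-1.03 and 0.86), so both rose in SP cells. In iSP against E11.5 SP, where 35.5% of genes were called higher and 32.1% lower, the same 13 genes counted 4 higher and 3 lower.

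Among 22 signals and surface genes of the progenitor, 15 were lower and 4 higher in iNP, with a median of -0.87, and 16 and 6 without iNP replicate 2. Spock2, a matrix proteoglycan of the cap, was at 59.0, 62.8, 71.0 and 72.7 in iNP and at 629.7, 756, 793 and 786 in E11.5 NP. It had the largest loss of the list, and fell by 3.46 on the log2 scale (SE 0.11, adjusted p = 2.4e-08). Cited1, a transcriptional coregulator that marks the least committed cap cells, was at 3.27, 4.26, 2.61 and 1.66 in iNP against 18.4, 30.8, 33.2 and 42.6. All 4 iNP libraries lay under the lowest embryonic library, E11.5 NP replicate 1, and the fold change was -3.01 (SE 0.27, adjusted p = 9.7e-06). Crym, a thyroid hormone binding protein of the cap, fell by 2.37 on the log2 scale.

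Rspo1 and Rspo3, secreted R-spondins that raise Wnt signalling, were both lower. Rspo1 was at 16.2, 14.5, 19.4 and 20.2 in iNP, against 124, 126, 118 and 107 in E11.5 NP, and fell by 2.698 on the log2 scale, and Rspo3 fell by 1.25. The losses were not alike beside SP cells. The Rspo1 change differed from that in SP cells by -4.36 (adjusted p = 3.8e-09), whereas for Rspo3 the difference of 0.31 was not called (adjusted p = 0.19).

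Fgf ligands of the cap moved in opposite directions. Fgf20, which the progenitors make themselves, was at 1.69, 2.66, 2.08 and 1.59 in iNP and at 3.70, 15.8, 15.8 and 13.8 in E11.5 NP, a fold change of -1.99 (adjusted p = 0.0011). Fgf9, a partner of Fgf20 in keeping progenitors and a protein that was given to the cultures, was at 18.7, 22.3, 20.2 and 23.6 against 1.56, 2.32, 4.01 and 2.67, a fold change of 2.65 (adjusted p = 2.7e-06). The receptor Fgfr1 was at 474 ± 53.5 (SD, n = 4) against 721 ± 69.9, a fold change of -0.61.

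Gdnf, the signal to the ureteric bud, was at 45.5, 32.9, 50.1 and 59.9 in iNP, against 88.0, 65.7, 74.5 and 58.7 in E11.5 NP. Its groups overlapped, and the fold change of -0.61 (adjusted p = 0.015) was -0.45 (adjusted p = 0.012) without iNP replicate 2 and lost its call in the fit of all 36 libraries (adjusted p = 0.23). Robo2, the receptor that confines Gdnf to the kidney field, was at 95.9 against 508 and fell by 2.52 on the log2 scale. Bmp7, a survival factor of the cap, fell by 0.53 (adjusted p = 0.0062), a call that was lost under quantile normalisation (adjusted p = 0.071). Its change differed from that in SP cells by -2.81 (adjusted p = 1.3e-06). Gas1, a coreceptor of the cap, fell by 1.33, the cadherin Cdh11 by 1.71 and the signalling adaptor Traf1 by 1.45 on the log2 scale.

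Of the 4 higher genes besides Fgf9, the neuropilin receptor Nrp2 was at 116, 53.02, 96.9 and 86.3 in iNP against 17.5, 10.1, 12.1 and 8.51, a fold change of 2.76, the glypican Gpc3 had a fold change of 1.05 and the adhesion molecule Ncam1 one of 0.76. The remaining 3 genes were not called with all 8 libraries and were called without iNP replicate 2. Itga8, the integrin used for the sort, was at 212, 75.5, 209.8 and 230.1 in iNP and at 86.0, 98.6, 105 and 118 in E11.5 NP, so replicate 2 lay below all embryonic libraries and the other 3 above them. The fold change was 0.72 (adjusted p = 0.07) with it and 1.09 (adjusted p = 4.4e-06) without it. The cadherin Cdh2, also called without iNP replicate 4, went from -0.42 (adjusted p = 0.073) to -0.20 (adjusted p = 0.0089) and the chromatin factor Dpf3 from 0.25 (adjusted p = 0.30) to 0.47 (adjusted p = 0.0035).

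A wider view of progenitor identity came from genes chosen at E12.5 in libraries that took no part in the comparison. E12.5 NP exceeded E12.5 SP by over 2 on the log2 scale in 270 genes (1.96% of 13772), and E12.5 SP exceeded E12.5 NP in 537 (3.9%). Of the NP genes 269 were tested in iNP against E11.5 NP, and 62 were higher and 150 lower, with a median of -0.58. Of the SP genes 463 were tested, and 315 were higher and 54 lower, with a median of 0.95. Of these 463, 54 reached the minimum value in no E11.5 NP library and were tested through iNP alone, so the share of higher calls was not free of the filter on low values. Without iNP replicate 2 the NP genes counted 71 higher and 149 lower and the SP genes 340 higher and 55 lower.

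As a mean of log2(CPM + 1) over all genes of each set, the NP genes were at 4.50 to 4.75 in the E11.5 NP libraries, 3.93 to 4.26 in iNP, 2.57 to 2.72 in iSP and 2.30 to 2.86 in E11.5 SP. The iNP libraries therefore lay below every E11.5 NP library and above every SP library of either source. For the SP genes the means were 2.40 to 2.60 in E11.5 NP, 3.09 to 3.50 in iNP, 3.88 to 4.02 in iSP and 4.51 to 4.97 in E11.5 SP. The median difference between NP and SP cells in the NP genes was 1.89 among embryonic cells and 1.39 among ES-derived cells, and in the SP genes it was -2.14 and -0.54. The difference of these differences was called negative in 120 and positive in 30 of the 269 NP genes. In the 521 SP genes it was called positive in 404 and negative in 5. The sets were chosen for a large gap between embryonic cells, so a smaller gap in ES-derived cells gives these signs. The counts restate the medians and are no separate support.

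**Figure D2:**
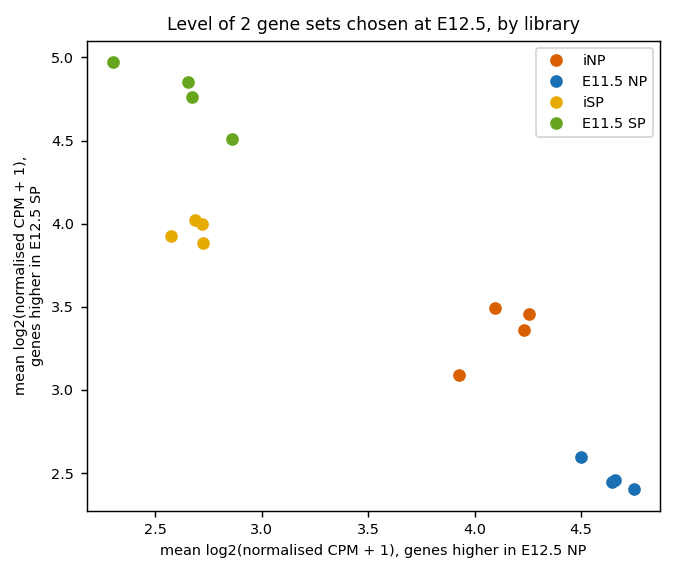
Each point is a library, placed by its mean log2(CPM + 1) over the 270 genes higher in E12.5 NP than in E12.5 SP (horizontal) and over the 537 genes higher in E12.5 SP (vertical). The 4 iNP libraries lie between the E11.5 NP libraries and the iSP libraries on both axes.

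Genes of the early nephron were higher in iNP. Of 22 tested, 19 were higher and 1 lower, with a median fold change of 2.05 (2 tested through iNP alone), and these counts were the same without iNP replicate 2. Lhx1, a LIM homeobox gene of the renal vesicle, was at 55.4, 23.1, 57.6 and 60.4 in iNP, against 0.117, 2.12, 1.71 and 10.9 in E11.5 NP, where replicate 4 was the highest and replicate 1 was near the value of 3 reads. The fold change was 3.85 (SE 0.62, adjusted p = 3.9e-04). Pax8, a paired-box gene of induced cells that was named after its values were seen, was at 171, 143, 228 and 213 against 13.4, 29.6, 21.0 and 60.7, a fold change of 2.75. The lectin gene Clec18a, a marker of the renal vesicle, had the largest change of the list at 4.60, from a mean of 1.53 to 51.5.

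Notch ligands and their readers were part of this rise. Dll1 was at 60.6, 66.2, 67.0 and 71.4 against 8.34, 5.10, 4.78 and 4.68, a fold change of 3.35, Jag1 had one of 2.06 and the Notch target Hes5 one of 2.29, from a mean of 0.0885 in E11.5 NP. The proximal-to-distal factors Irx3 and Pou3f3 had fold changes of 2.92 and 2.75, and the cyclin gene Ccnd1 one of 2.10. Fgf8, a signal of the renal vesicle, was at 17.1, 22.2, 17.1 and 19.8 in iNP and at 5.10, 8.46, 7.59 and 11.4 in E11.5 NP, a fold change of 1.17. Wnt4, the inducer of the epithelial transition, was at 132, 214, 155 and 148 in iNP, against 104, 143, 135 and 176 in E11.5 NP; it overlapped and was not called (fold change 0.22, adjusted p = 0.31). Bmp2 was likewise not called (0.52, adjusted p = 0.18), and the membrane protein gene Tmem178, named after its values were seen, was the one that fell, by 1.55 on the log2 scale.

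The choice of comparator mattered for these genes, and age cannot be told apart from other differences between the embryonic pools. Against E12.5 NP 13 of the 22 were higher and 2 lower. The iNP values used are the same in both comparisons. Lhx1 was at 20.9, 25.9, 27.0 and 39.9 in the E12.5 NP libraries, which left a fold change of 0.71 (adjusted p = 0.086), Fgf8 one of -0.12 (adjusted p = 0.61) and Cdh4 one of -0.014 (adjusted p = 0.97). The cadherin Cdh4 was in any case weak against E11.5 NP (0.93, adjusted p = 0.043), with overlapping groups and a call that was lost without E11.5 NP replicate 1, 2 or 3 or iNP replicate 1, 3 or 4. Hes5 (2.22), Pou3f3 (2.61), Dll1 (2.52) and Clec18a (2.01) stayed higher. The change in NP cells exceeded that in SP cells in 14 of the 22 genes and was less in 1.

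Genes that moved with embryonic age in stroma were also read, and no NP or iNP library chose them. E12.5 SP exceeded E11.5 SP by over 1 on the log2 scale in 225 genes (1.65% of 13633), and the reverse held for 308 (2.26%). Of the older genes 172 were tested, and 66.9% were higher in iNP and 9.30% lower, with a median of 0.95. Of these 172, 32 reached the minimum value in no E11.5 NP library, so they were tested through iNP alone and could only be higher. The other 53 of the 225 did not pass the filter on low values. Neither the shares nor the median was free of it. The 284 younger genes tested split into 40.5% higher and 38.7% lower, with a median of 0.02. Against E12.5 NP the older genes counted 84 higher and 21 lower and the younger genes 121 and 61. In iSP against E11.5 SP, which shares the E11.5 SP libraries with the choice, the older genes split into 72 higher and 69 lower of 190.

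Markers of other cells of the kidney were read next, because the sorted pools may hold some of them. In bulk RNA, fewer cells of a type cannot be told apart from less RNA per cell. Among the genes used for the gates, Pdgfra was at 44.9, 17.7, 33.9 and 30.04 in iNP and at 3.04, 2.32, 2.77 and 1.98 in E11.5 NP, and at 409.7 in iSP. Epcam was at 21.9, 33.0, 25.8 and 24.2 against 6.74, 10.6, 11.4 and 9.57, Ret at 10.4, 6.43, 7.56 and 11.04 against 5.65, 3.89, 5.71 and 2.05, and Pecam1 at 3.48, 4.23, 2.49 and 2.75 against 0.585, 2.59, 2.22 and 1.64, where the groups overlapped and the call (adjusted p = 0.037) was lost without iNP replicate 1 or 2 or without E11.5 NP replicate 1 or 4 (adjusted p = 0.066 without iNP replicate 2).

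Of the stromal genes 14 of 25 were higher and 6 lower, and the sum of the list ran from 2142 to 3235 in iNP and from 2485 to 2682 in E11.5 NP. The defining gene Foxd1 did not rise with them. It was at 8.86, 7.02, 6.38 and 6.05 in iNP, against 92.9, 56.7, 57.1 and 44.3 in E11.5 NP, against a mean of 410.4 in E11.5 SP, and fell by 2.94 on the log2 scale. Among the higher genes were fold changes of 3.99 for the receptor Pdgfrb, 3.61 for the collagen Col3a1, 2.85 for the mesenchymal factor Twist1 and 5.25 for the matrix gene Ecm1.

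Of the ureteric bud genes 11 of 21 were higher and 0 lower (12 and 1 without iNP replicate 2), among them the epithelial cadherin Cdh1 (13.03 against 1.71) and the homeobox gene Emx2 (16.5 against 0.473). The bud-tip signal Wnt11 was not called (-0.29, adjusted p = 0.43). Endothelial genes counted 15 of 16 higher, with a median of 1.33. The receptor Kdr was at 40.0, 25.6, 31.5 and 22.8 in iNP and at 10.5, 5.81, 6.18 and 3.49 in E11.5 NP, and Cldn5 of the endothelial tight junction at 24.2 against 1.1799. None of 15 macrophage genes passed the filter. The embryonic globins Hbb-y and Hba-x were at 0 in all iNP libraries and at 6.08, 8.33, 7.12 and 44.4 and 5.14, 5.37, 4.65 and 18.7 in E11.5 NP, where a count of 0 allows up to the value of 3 reads. The part of any of these cells in the other results was not tested.

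Genes of tissues outside the kidney were read by list. Of 21 neural genes 16 were higher and 3 lower, with a median of 2.10. Of these, 8 reached the minimum value of 1 in no E11.5 NP library, among them Zic1 and Sox1, so they were tested through iNP alone and could only be higher, and neither the count nor the median was free of the filter. The summed level of the list was 448 to 482 in iNP and 348 to 453 in E11.5 NP, with overlap. Zic1, a zinc-finger gene of dorsal neural tube and somite, was at 80.2, 62.0, 63.9 and 57.8 in iNP and at 0.0779, 0.0336, 0.0426 and 0 in E11.5 NP, under the value of 3 reads in all 4, and had a fold change of 6.001. The neural progenitor gene Sox2 was at 28.2, 36.5, 27.9 and 26.2 in iNP and had a fold change of 4.44, the neuronal gene Stmn2 one of 3.35 and the neural crest gene Sox10 one of 2.10. Dcx, a microtubule protein of young neurons, went the other way and fell by 2.63, and Nes fell by 0.46 on the log2 scale, a call that was lost under quantile normalisation (adjusted p = 0.084). The difference of the change in NP cells from that in SP cells was positive in 12 of the 21 and negative in 4, with Zic1 (-1.75) and the telencephalic gene Lhx2 (-2.89) among the latter.

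Early and paraxial mesoderm genes counted 8 higher and 3 lower of 12, of which 5 were tested through iNP alone. The summed level of the list was 228 to 269 in iNP and 547 to 591 in E11.5 NP. The somite factor Pax3 was at 17.5 against 0.726 (fold change 3.57) and Tcf15 at 9.73 against 1.11, while Foxc1, a forkhead gene of paraxial mesoderm, was at 21.9, 17.6, 28.1 and 20.8 in iNP against 233, 217, 204 and 213, and fell by 3.25 on the log2 scale. Muscle genes counted 5 higher and 3 lower of 11 (3 tested through iNP alone), with Myog, the myogenic factor, at 7.42, 10.7, 10.05 and 6.10 in iNP, against 0.429, 0.101, 0.171 and 0.171 in E11.5 NP. The summed level of the muscle list was 363 to 453 in iNP and 630.1 to 752 in E11.5 NP, so in the mesoderm and muscle lists it was lower in iNP although more members were higher than lower.

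Of 17 pluripotency genes in the table only 6 passed the filter on low values, and of these 5 were higher and 1 lower. Lin28a, an RNA-binding protein of early embryonic cells, was at 74.5, 93.5, 76.0 and 81.3 in iNP and at 25.3, 7.08, 8.19 and 3.86 in E11.5 NP, where replicate 1 was the highest, and Sall4 was at 21.0, 19.9, 20.7 and 18.4 against 16.6, 2.65, 3.03 and 0.342. The call of Sall4 was lost with edgeR and with DESeq2 on recovered reads (adjusted p = 0.060 and 0.097). The change of neither differed from that in SP cells at the threshold (adjusted p = 0.41 and 0.14). The list of Lin28 targets and partners split into 2 higher and 5 lower of 12, and against E12.5 NP into 4 and 1.

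The Hox genes, which place cells along the body axis, split by position in their clusters; this grouping was made after the values were seen. Of 8 tested genes of groups 10 to 13, 7 were lower and none higher, with a median of -1.09, and of 27 genes of groups 1 to 9, 10 were higher and 5 lower, with a median of 0.12. Hoxd11 was at 65.0, 65.7, 70.9 and 63.5 in iNP, against 185, 188, 201 and 175 in E11.5 NP, and fell by 1.48 on the log2 scale, Hoxc11 fell by 1.66 and Hoxa11 by 0.91. Hoxc10 fell by 0.70 and Hoxa10 by 0.50, of which Hoxa10 was not called under quantile normalisation (adjusted p = 0.085) and neither was in the fit of all 36 libraries. Anterior genes were mixed: Hoxd1 fell by 1.74 and Hoxd4 by 1.52 on the log2 scale, whereas Hoxb7 had a fold change of 1.80. The count over all 35 tested, 10 higher and 12 lower, turned to 12 higher and 10 lower under upper-quartile scaling and to 13 and 12 without E11.5 NP replicate 1. Antisense transcripts lie within these clusters, and how strand was handled in the counting is not given in the sources used here.

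**Figure D3:**
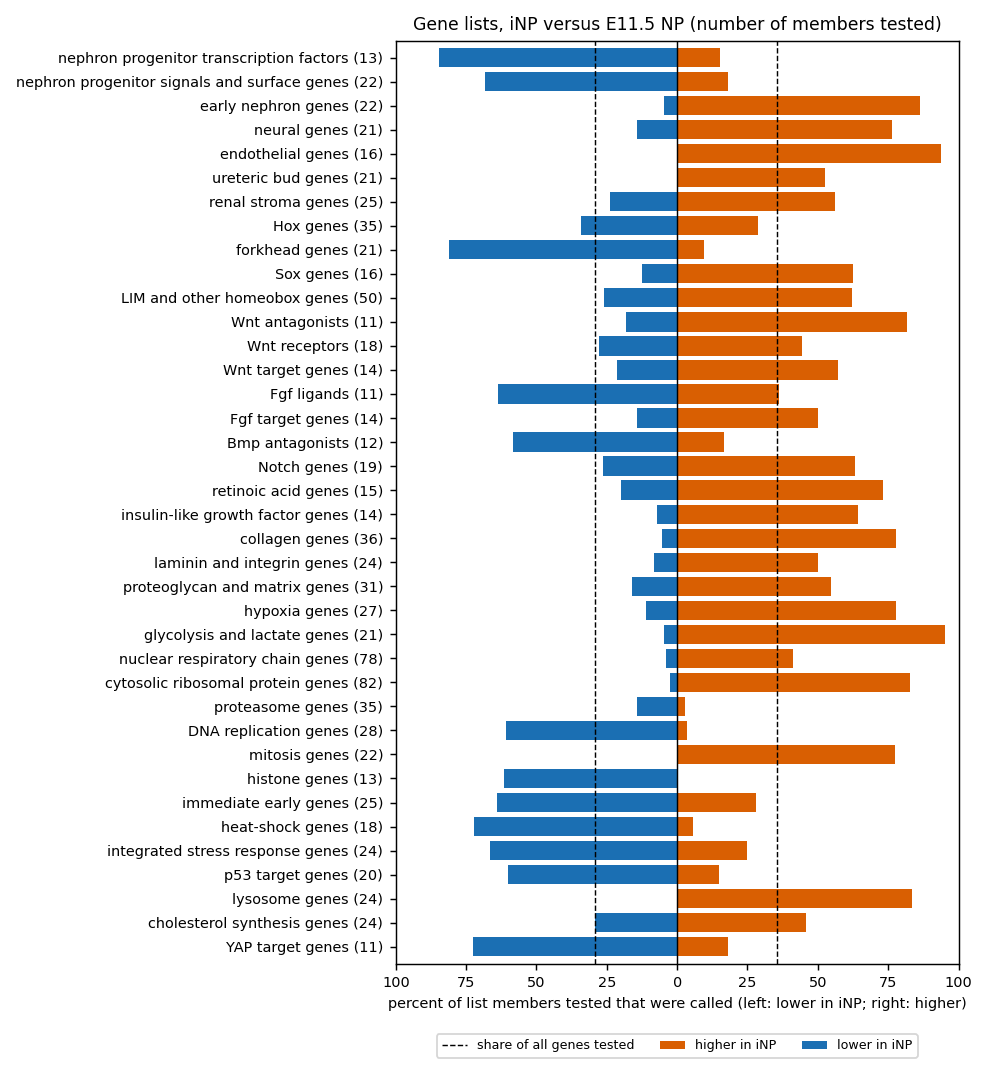
Share of the tested members of each gene list that were called lower (left, blue) or higher (right, orange) in iNP than in E11.5 NP, in percent, with the number of members tested in brackets. Dashed lines mark the shares over all genes tested, 29.2% and 35.5%; progenitor lists extend to the left and glycolysis, collagen and early nephron lists to the right.

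Signalling genes were read by role. Of 11 Wnt ligands 6 were higher and 2 lower (4 tested through iNP alone). Wnt1, a ligand of the dorsal neural tube, was at 8.76, 12.3, 11.5 and 10.4 in iNP and under 0.128 CPM in E11.5 NP (mean 0.0479), Wnt3a of the tail bud had a fold change of 2.57, and Wnt6 fell by 1.91 on the log2 scale. Wnt receptors split into 8 higher and 5 lower of 18, with fold changes of 2.72 for Fzd10 and 2.59 for Ror1, -1.42 for Fzd4 and -1.23 for the coreceptor Lrp6.

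Of 11 secreted or membrane antagonists of Wnt 9 were higher and 2 lower (2 tested through iNP alone). Sfrp2 was at 403, 443, 501 and 436 in iNP and at 51.7, 82.0, 73.4 and 96.4 in E11.5 NP, a fold change of 2.57, Dkk1 had one of 2.23 and the lipase Notum, itself a Wnt target, one of 2.29. Kremen1 and Kremen2, which act with Dkk proteins, fell by 1.14 and 2.12 on the log2 scale. Wnt targets counted 8 higher and 3 lower of 14 (2 tested through iNP alone). Their members disagreed: of the feedback ligases, Rnf43 had a fold change of 2.16 and Znrf3 one of -1.73, and Sp5 one of -0.94.

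Fgf ligands counted 4 higher and 7 lower of 11 (2 tested through E11.5 NP alone and 1 through iNP alone), and their targets 7 higher and 2 lower of 14. Against E12.5 NP the ligands counted 3 and 3 of 9 and the targets 2 and 0 of 13, or 5 and 0 without E12.5 NP replicate 1. Fgf10, a mesenchymal ligand, was at 8.48, 5.80, 9.93 and 10.1 in iNP, against 44.6, 51.8, 61.3 and 66.9 in E11.5 NP, and fell by 2.59 on the log2 scale, and Fgf15 was at 14.4 against 0.0864. The feedback inhibitor Dusp6 was at 112, 117, 117 and 118 against 46.2, 32.4, 39.8 and 34.0, a fold change of 1.59, and Spry1, Spry2 and Spry4 had fold changes of 1.176, 1.15 and 1.49. The last 3 were not called against E12.5 NP (adjusted p = 0.15, 0.088 and 0.051), where E12.5 NP replicate 1 was the highest of its group, and were called without that library (0.86, 0.49 and 1.04). The Fgf-driven factors Etv4 and Etv5 were not called against E11.5 NP (adjusted p = 0.078 and 0.33), but Etv4 was without E11.5 NP replicate 3 (0.31) and Etv5 without iNP replicate 2 (0.34).

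Bmp antagonists counted 7 lower and 2 higher of 12; against E12.5 NP 1 was lower and 2 higher (2 and 4 without E12.5 NP replicate 1). Follistatin (Fst) was at 13.4, 13.5, 11.98 and 13.2 in iNP, 168, 109, 129.5 and 52.0 in E11.5 NP and 18.1, 12.97, 10.8 and 10.7 in E12.5 NP, and gremlin (Grem1) fell by 2.27 on the log2 scale against E11.5 NP. The ligands Bmp4 and Bmp5 had fold changes of 2.36 and 1.89, and the receptors Bmpr2 and Acvr1 fell by 1.94 and 2.01. Of the targets, Id1 and Id3 had fold changes of 1.30 and 1.62, of which Id1 was not called against E12.5 NP (adjusted p = 0.81).

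Notch genes counted 12 higher and 5 lower of 19 (2 tested through iNP alone), and the difference from the change in SP cells was positive in 10 and negative in none. The Notch feedback gene Nrarp was at 30.7, 33.1, 28.3 and 25.9 in iNP and at 2.45, 2.55, 2.60 and 2.43 in E11.5 NP, a fold change of 3.11, Notch3 had one of 1.55, and Hes1, a target that other pathways also drive, fell by 1.86 on the log2 scale. Of 11 Hedgehog genes 5 were lower and 1 higher (5 and 3 without iNP replicate 2), and the target Gli1 was at 1.76, 1.1805, 1.14 and 1.78 in iNP, against 42.3, 12.02, 10.1 and 7.73 in E11.5 NP, with replicate 1 the highest of the embryonic libraries.

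Retinoic acid genes counted 11 higher and 3 lower of 15. The binding protein Crabp1 was at 190.1, 257, 146 and 150.4 in iNP and at 7.68, 5.91, 5.37 and 5.74 in E11.5 NP, a fold change of 4.68, and the catabolic enzyme Cyp26a1 was at 4.36 against 0.0213. Rdh10, which makes retinal, fell by 1.03 on the log2 scale. Insulin-like growth factor genes counted 9 higher and 1 lower of 14 (2 tested through iNP alone), with Igf1 at 38.8, 24.0, 35.6 and 36.1 against 2.49, 1.88, 2.13 and 1.26 and the binding proteins Igfbp2 and Igfbp3 at fold changes of 2.31 and 1.599.

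Among genes of the extracellular matrix, collagens were read first. Of 36 collagen genes 28 were higher and 2 lower, with a median of 0.85, and in iSP against E11.5 SP 9 were higher and 19 lower. The difference between both changes was positive in 27 and negative in none. Against E12.5 NP 19 collagen genes were higher and 2 lower of 36. Fibrillar Col1a2 was at 297, 169.9, 228 and 208 in iNP, against 24.7, 21.3, 22.004 and 18.4 in E11.5 NP, a fold change of 3.30 (difference from SP cells 2.40, adjusted p = 2.2e-05). Col14a1 had a fold change of 3.84. Of the basement membrane collagens, Col4a1 had one of 0.66 with overlapping groups, and Col4a2 one of 0.66.

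Laminin and integrin genes counted 12 higher and 2 lower of 24, and 17 and 3 without iNP replicate 2. Against E12.5 NP they counted 8 and 1 of 25. Nidogen-2 (Nid2), a basement membrane linker, was at 657, 294, 586 and 572 in iNP and at 27.9, 47.8, 44.9 and 67.0 in E11.5 NP, a fold change of 3.46, and the laminin chains Lama4 and Lamb1 had fold changes of 2.43 and 0.99. Npnt, the nephronectin ligand of the Itga8 integrin, fell by 2.56 on the log2 scale, from 71.5, 58.8, 61.4 and 48.2 to 10.7, 5.57, 11.9 and 10.2. Guidance genes counted 33 higher and 10 lower of 62 (7 tested through iNP alone), with Sema3a at 43.6 against 1.67 and Sema3d at 11.9 against 50.9.

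Glycolysis and hypoxia genes rose together. Hypoxia-inducible factors bind short sites near their targets when oxygen is low, and many of these targets import glucose, run glycolysis and spare the mitochondria. Of 27 hypoxia genes 21 were higher and 3 lower, with a median of 0.87, and against E12.5 NP 16 were higher and 1 lower. Of 21 genes of glycolysis and lactate 20 were higher and 1 lower, with a median of 1.29, and against E12.5 NP 18 and 1. The counts without iNP replicate 2 were 22 and 3 for hypoxia, and 20 and 1 for glycolysis.

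Promoters of 4 hypoxia genes that rose are shown to set the core of the hypoxia-inducible factor site beside the measurement. Each window runs from 250 bases before to 50 after the gene's start on its own strand, is taken from RefSeq (GRCm38.p6), and has every ACGTG or GCGTG, on either strand, in capitals. Egln3 lies at chr12:54203825-54204124 on the minus strand, Bnip3 at chr7:138909457-138909756 on the minus strand, Car9 at chr4:43506776-43507075 on the plus strand and Slc2a1 at chr4:119108495-119108794 on the plus strand.
Egln3: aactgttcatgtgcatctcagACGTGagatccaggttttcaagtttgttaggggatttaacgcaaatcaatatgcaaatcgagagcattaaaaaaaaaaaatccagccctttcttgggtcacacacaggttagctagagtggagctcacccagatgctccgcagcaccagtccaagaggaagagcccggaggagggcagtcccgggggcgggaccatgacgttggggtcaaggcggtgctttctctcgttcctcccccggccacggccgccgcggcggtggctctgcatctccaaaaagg
Bnip3: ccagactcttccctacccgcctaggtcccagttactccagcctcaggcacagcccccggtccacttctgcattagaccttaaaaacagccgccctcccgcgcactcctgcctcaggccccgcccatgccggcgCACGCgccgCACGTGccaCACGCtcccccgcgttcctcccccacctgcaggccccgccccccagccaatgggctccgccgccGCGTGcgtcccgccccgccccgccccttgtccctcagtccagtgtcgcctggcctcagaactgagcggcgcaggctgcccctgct
Car9: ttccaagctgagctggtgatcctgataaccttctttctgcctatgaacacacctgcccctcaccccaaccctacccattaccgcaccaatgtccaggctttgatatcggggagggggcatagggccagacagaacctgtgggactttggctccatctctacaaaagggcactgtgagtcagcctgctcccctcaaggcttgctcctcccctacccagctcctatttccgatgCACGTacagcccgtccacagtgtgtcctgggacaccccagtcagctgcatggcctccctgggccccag
Slc2a1: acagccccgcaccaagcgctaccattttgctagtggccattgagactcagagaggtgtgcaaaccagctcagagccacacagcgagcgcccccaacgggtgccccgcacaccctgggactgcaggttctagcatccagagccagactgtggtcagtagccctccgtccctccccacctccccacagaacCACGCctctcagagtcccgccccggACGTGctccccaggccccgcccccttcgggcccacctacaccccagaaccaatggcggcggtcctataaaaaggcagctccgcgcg
The core was found at 1 place in Egln3, 5 in Bnip3 (of which 2 overlap on opposite strands), 1 in Car9 and 2 in Slc2a1. A window was at hand for 22 of the hypoxia genes. The core was held by 21 of them, and by 17 of 18 called higher. It was held by 69.1% of the 9937 tested genes with a window, where any window of a gene counted. Of all 32851 windows, counted singly, 43.8% held it. For glycolysis and lactate genes it was 17 of 20, and 16 of 19 called higher. The hypoxia list names genes known to respond to hypoxia, so its share is no finding of these data. A match describes the letters of the window and is no site in itself.

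Egln3, an oxygen-sensing hydroxylase that is itself a target, was at 78.4, 72.1, 68.9 and 70.7 in iNP, against 1.598, 1.54, 1.71 and 1.74 in E11.5 NP. Bnip3, a mitophagy receptor, was at 158, 195, 146 and 154 against 16.7, 14.5, 14.5 and 14.2, a fold change of 3.35 (SE 0.11, adjusted p = 2.7e-08). Carbonic anhydrase 9 (Car9), a classical reporter of hypoxia, was at 11.3, 10.2, 10.9 and 10.5 in iNP against 0.468, 0.235, 0.0853 and 0.171, and the glucose transporter Slc2a1 at 583, 670.2, 564 and 554 against 86.1, 73.4, 81.1 and 76.7. All 4 groups of iNP values lay above all embryonic values. Adrenomedullin (Adm) had a fold change of 2.64, Vegfa, the endothelial growth factor, one of 0.70, and Ankrd37 one of 2.57 that was not called against E12.5 NP (0.85, adjusted p = 0.058). The change in SP cells was of like size for Bnip3 (difference -0.019, adjusted p = 0.96), was exceeded in NP cells for Egln3 (1.14) and was larger in SP cells for Car9 (-0.76). Over the 27 hypoxia genes the median change was 1.54 in SP cells against 0.87 in NP cells. The difference was positive in 4 of them and negative in 8, beside 17.4% and 11.9% of all genes.

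Along the pathway, the phosphofructokinase Pfkp was at 80.3, 65.97, 85.9 and 99.03 in iNP and at 6.59, 7.12, 5.67 and 7.42 in E11.5 NP, a fold change of 3.44. The aldolases Aldoa and Aldoc had fold changes of 1.52 and 3.44, phosphoglycerate kinase Pgk1 one of 1.701, the pyruvate kinase Pkm one of 0.94, lactate dehydrogenase Ldha one of 1.52, and the lactate exporter Slc16a3 one of 2.18. Ldha was at 2313, 3242, 2114 and 2191 in iNP, against 809.5, 941, 848 and 798 in E11.5 NP. The difference from SP cells was not called for Aldoa, Pgk1, Pkm, Ldha or Slc16a3 (adjusted p = 0.38, 0.24, 0.35, 0.63 and 0.52).

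Respiration genes of both genomes were read. Of 78 nuclear genes of the respiratory chain 32 were higher and 3 lower, with a median of 0.37, and when the trend of each library with gene length was removed, which left 33.6% of all genes higher and 34.8% lower, the count was 26 and 11. These shares of higher calls are near the background. The count was 40 and 7 without iNP replicate 2, 6 and 3 against E12.5 NP, under the background of that comparison, and 3 and 3 there without E12.5 NP replicate 1 (13 and 2 without its replicate 2). Of 7 genes of mitochondrial DNA none was higher and 5 were lower. The complex I gene mt-Nd2 was at 630.0, 384, 614 and 686 in iNP and at 1012, 1314, 1581 and 1384 in E11.5 NP, a fold change of -1.21, and mt-Cytb had one of -0.81. For mt-Nd5 the change was -1.15 with iNP replicate 2 and -0.65 without it (adjusted p = 1.6e-04), and the call was lost without any one of the E11.5 NP libraries (adjusted p = 0.0503 to 0.072). Reads of mitochondrial genes made up 0.644 to 1.02% of an iNP library and 1.05 to 1.65% of an E11.5 NP library.

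**Figure D4:**
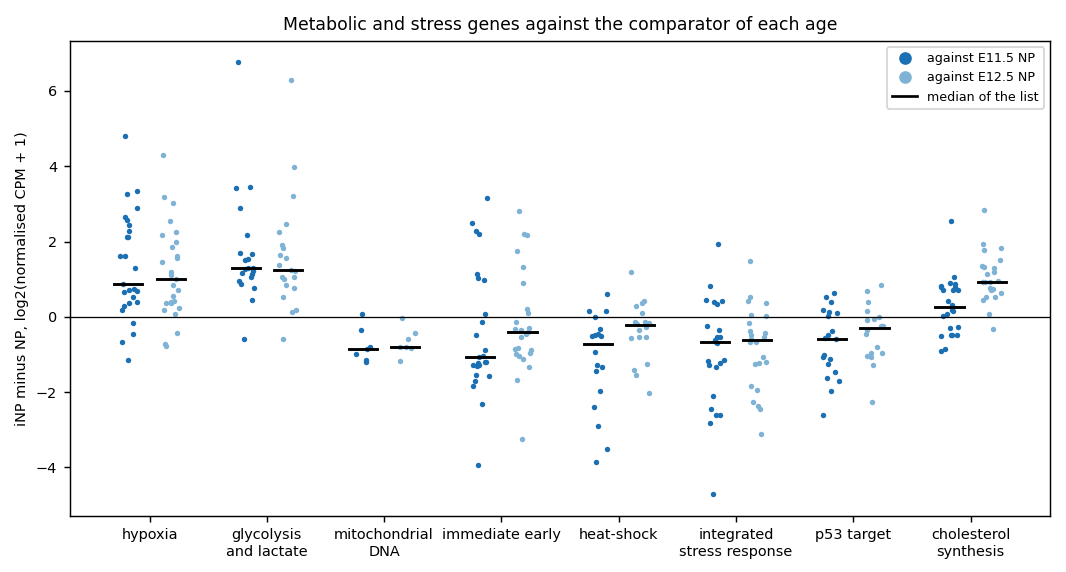
Fold change of iNP, as log2(CPM + 1), for every tested member of 8 gene lists against E11.5 NP (dark points) and against E12.5 NP (light points), with the median of each list as a bar. Hypoxia and glycolysis medians are alike against both ages, while the immediate early and heat-shock medians lie nearer 0 against the 4 libraries of E12.5 NP.

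Growth and division genes moved in different directions. Of 82 cytosolic ribosomal protein genes 68 were higher and 2 lower, with a median of 0.66. The count was 71 and 6 without iNP replicate 2, 58 and 7 with the length trend removed, 27 and 2 against E12.5 NP, and 12 and 3 without replicate 1 of that group (48 and 2 without its replicate 2). Rps18 was at 878, 1519, 832 and 819 in iNP, against 309.9, 349.9, 312 and 306 in E11.5 NP; these genes have many near-identical copies among which reads may be divided. Mitochondrial ribosomal proteins counted 29 higher and 11 lower of 75, and 18 and 19 with the length trend removed. Their count was 30 and 21 without iNP replicate 2 and 5 and 5 against E12.5 NP, or 14 and 4 without replicate 2 of that group.

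Replication and mitosis genes went opposite ways. Of 28 DNA replication genes 17 were lower and 1 higher, with a median of -0.42, whereas of 22 mitosis genes 17 were higher and none lower, with a median of 0.76. Against E12.5 NP 11 replication genes were lower and none higher. The helicase subunit Mcm4 was at 228, 233, 233 and 239.7 in iNP and at 449.7, 494, 517 and 467 in E11.5 NP, and the loading factors Cdc6 and Cdt1 fell by 1.30 and 1.08 on the log2 scale. The mitotic kinase Cdk1 was at 177, 199, 142 and 159.8 against 53.8, 61.004, 59.8 and 59.9, a fold change of 1.51, Plk1 had one of 1.36 and Top2a one of 1.09. Mki67, the usual marker of cycling cells, was not called (0.12, adjusted p = 0.82; 0.45, adjusted p = 0.30 without iNP replicate 2). Of 13 histone genes 8 were lower and none higher (2 tested through E11.5 NP alone). The libraries select polyadenylated RNA, which most histone messages lack. Of the cell cycle inhibitors, the retinoblastoma gene Rb1 fell by 1.47 and Cdkn1a by 1.25 on the log2 scale, and Cdkn2a was at 2.53, 4.13, 2.20 and 1.66 in iNP against 0.0390, 0.0336, 0.213 and 0.171.

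Stress genes differed by list. Oxidative stress genes counted 9 higher and 2 lower of 15, with a median of 0.40, and 8 and 2 against E12.5 NP, whereas ER chaperone genes counted 8 lower and 2 higher of 16. Of 25 immediate early genes 16 were lower and 7 higher against E11.5 NP, but 5 and 6 against E12.5 NP. The median of the list was -1.06 in NP cells and -1.49 in SP cells, and the difference between both changes was positive in 19 of the 25, which for a gene that was lower in both is a smaller loss in NP cells, and negative in 1. Atf3 was at 3.83, 4.46, 3.08 and 3.16 in iNP, against 100.1, 57.7, 67.1 and 59.7 in E11.5 NP, and fell by 3.94 on the log2 scale, and Myc fell by 2.32. Fos went the other way, at 370.5, 283, 331 and 301 against 85.9, 52.7, 61.4 and 66.1, as did Egr1 (fold change 2.21), Fosb (2.49) and Ier3 (3.16).

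Replicate 1 of E12.5 NP lay far from the other 3 E12.5 NP libraries by Dixon's criterion in 4.86% of all genes and replicate 2 in 4.23%, against 0.23 and 0.28% for the others. Without replicate 1, 24.6% of all genes were called higher and 19.5% lower against E12.5 NP, and without replicate 2, 27.6% and 20.9%. Immediate early genes counted 7 lower and 7 higher without replicate 1 and 10 and 5 without replicate 2. Heat-shock genes counted 13 lower and 1 higher of 18 against E11.5 NP (14 and 2 without iNP replicate 2), 5 and 1 against E12.5 NP, and 6 and 6 without its replicate 1 (5 and 1 without its replicate 2). The inducible chaperone Hspa1a was at 0.633, 0.590, 0.498 and 0.797 in iNP, 37.1, 13.3, 28.3 and 19.04 in E11.5 NP and 194, 1.10, 1.177 and 1.183 in E12.5 NP, so its fold change of -3.87 against E11.5 NP was -2.03 (adjusted p = 0.22) against E12.5 NP, and -0.41 (adjusted p = 0.017) without the high replicate 1 of E12.5 NP. Integrated stress response genes counted 16 lower and 6 higher of 24 against E11.5 NP, 9 and 1 against E12.5 NP, and 16 and 1 there without replicate 1 (9 and 0 without replicate 2). Their factor Atf4 was at 149, 207, 152 and 150.4 in iNP and at 732, 707, 704 and 696 in E11.5 NP, and its target Chac1, which degrades glutathione, was at 3.76, 4.66, 5.48 and 5.99 against 132, 168, 151 and 167, and fell by 4.71 on the log2 scale. Both were also lower against E12.5 NP (-1.83 and -3.11).

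Of the p53 targets 12 of 20 were lower (2 tested through E11.5 NP alone) and 3 higher, and against E12.5 NP 6 of 18 were lower and 2 higher. The gene for p53 itself, Trp53, chosen after its values were seen, was at 29.1, 35.6, 39.9 and 36.5 in iNP, against 269, 360.0, 357 and 354 in E11.5 NP, and fell by 3.21 on the log2 scale. Embryonic kidneys had been stored cold or used fresh and then dissociated, which of the samples were stored is not given in the sources used here, and its part in the stress genes was not tested.

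Targets of YAP counted 8 lower and 2 higher of 11, and 1 and 1 against E12.5 NP, or 3 and 1 without its replicate 1 and 4 and 1 without its replicate 2. Cyr61 fell by 1.20 and the kinase gene Lats2 by 2.39 on the log2 scale. Lysosome genes counted 20 higher and none lower of 24, with 1 lower without iNP replicate 2. Cholesterol synthesis genes split into 11 higher and 7 lower of 24 against E11.5 NP, and 21 higher and none lower against E12.5 NP. Among interferon and MHC genes (9 higher, 2 lower of 14), Ifitm3 was at 19.06, 27.5, 19.01 and 16.6 in iNP, against 0.935, 1.31, 1.28 and 1.13 in E11.5 NP, and the class I gene H2-D1 fell by 2.40 on the log2 scale. Class I genes vary between mouse strains, and the strains differ between the groups.

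Imprinted genes, expressed from 1 parental copy, did not move one way: 11 of 37 were higher and 10 lower, and with DESeq2 11 were higher and 12 lower. Single members changed by a great deal. Plagl1 was at 0.528, 0.230, 1.03 and 0.956 in iNP and at 143, 91.0, 98.97 and 95.7 in E11.5 NP, and fell by 6.01 on the log2 scale, Peg13 fell by 4.58 and Grb10 by 3.80, while Sgce had a fold change of 2.66 and Igf2 was at 7434, 6269, 8511 and 7866 against 1977, 2376, 2338 and 2299. Among genes that set or read DNA methylation, Zfp57, which protects imprints, had a fold change of 1.33, Tet3 one of -1.52 and Hells one of -1.41, while the maintenance enzyme Dnmt1 was not called (-0.35, adjusted p = 0.069; -0.19, adjusted p = 0.04 without iNP replicate 2).

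Sex-linked and single-locus genes separated the sources. Xist, made from the inactive X of females, was at 0.141, 0, 0.0293 and 0.0683 in iNP, against 203, 82.5, 87.6 and 231 in E11.5 NP. The Y-linked gene Kdm5d was at 0.563, 0.0328, 0.469 and 0.341 in iNP against 18.6, 22.5, 22.9 and 13.5, and fell by 3.90 on the log2 scale, whereas Eif2s3y of the same chromosome had a fold change of 0.63 and Uty was not called (0.36, adjusted p = 0.18; 0.56, adjusted p = 0.011 without iNP replicate 2). Hprt, a purine salvage enzyme on the X chromosome, was at 0.106, 0.525, 0.234 and 0.228 in iNP and at 37.1, 46.4, 51.0 and 54.0 in E11.5 NP. All embryos of a mouse were pooled, with no sort by sex stated, while iNP came from a single line.

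Chromosomes were close to one another except chromosome 6. Of its 714 genes tested 43.8% were higher and 23.0% lower, and its median lay 0.16 above that of all genes on the log2 scale. Each iNP library showed this, by 0.16 to 0.17. By the median over all 4 iNP libraries no other chromosome lay more than 0.08 from the median of all genes, but in single libraries others did, with chromosome 18 at -0.16 in iNP replicate 2. In iSP against E11.5 SP chromosome 6 lay 0.08 above the median of all genes, and chromosome 10 lay farther off, 0.09 below.

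**Figure D5:**
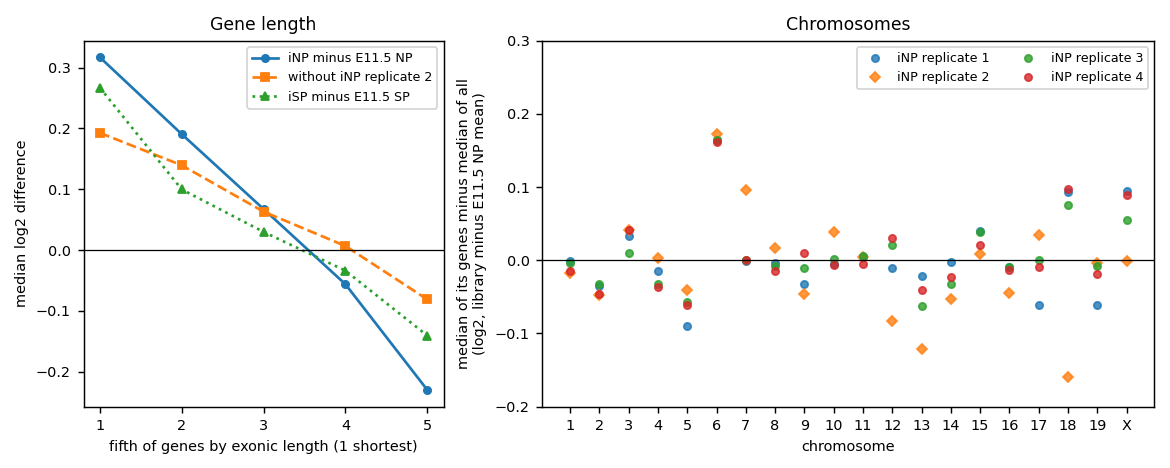
Left, median log2 difference of the genes in each quintile by exonic length, for iNP against E11.5 NP with and without iNP replicate 2 and for iSP against E11.5 SP. Right, median of the genes of each chromosome minus the median of all genes for each iNP library against the E11.5 NP mean; chromosome 6 lies at 0.16 to 0.17 in all 4 libraries.

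Gene length and level also separated the groups. From the shortest to the longest quintile of genes by exonic length the median fold change went from 0.32 through 0.19, 0.07 and -0.06 to -0.23, and without iNP replicate 2 from 0.19 to -0.08. The same order was seen in iSP against E11.5 SP, from 0.27 to -0.14. By mean level, 47.6% of genes in the lowest quintile were higher and 17.5% lower, and 17.2% of genes in the highest quintile were higher and 46.7% lower. Of 1104 predicted genes and pseudogenes 370 were higher and 206 lower, which became 209 and 331 with the length trend removed and 161 and 353 under quantile normalisation, and reads of many of them cannot be placed apart from those of a parent gene.

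Transcription factor families moved in both directions. Of 21 forkhead genes 17 were lower and 2 higher, with a median of -1.14. Foxd2 was at 22.8, 30.7, 26.0 and 21.2 in iNP, against 206, 178, 191 and 174 in E11.5 NP, Foxp1 fell by 1.995 and Foxo3, a target of growth factor signalling, by 1.59 on the log2 scale, and Foxp2 had a fold change of 2.24. Of 16 Sox genes 10 were higher and 2 lower (3 tested through iNP alone), with fold changes of 2.77 for Sox1 and 2.78 for Sox5 and of -1.36 for Sox4. Of 50 LIM and other homeobox genes 31 were higher and 13 lower (13 tested through iNP alone). Zinc-finger genes named Zfp split into 104 higher and 78 lower of 324, and into 89 and 94 with the length trend removed and 62 and 106 under quantile normalisation. Against E12.5 NP it was 59 and 43 of 326.

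The 10 largest differences from the change in stromal progenitors were led by the matrix gene Ecm1. It was at 129, 118, 137 and 111 in iNP and at 1.87, 2.35, 2.43 and 2.53 in E11.5 NP, and at 31.6, 45.1, 43.7 and 29.7 in iSP and 56.4, 72.2, 96.9 and 113 in E11.5 SP, a difference of 6.37 (adjusted p = 1.1e-10). Lmx1b, a LIM homeobox gene known from podocytes and limb, was at 6.26, 4.56, 7.996 and 8.56 in iNP against 109.5, 85.2, 89.1 and 90.7, and at 9.23, 11.999, 12.3 and 10.002 in iSP against 6.64, 1.82, 1.07 and 1.46, a difference of -5.49. The others, in order of size, were Rgs5 (6.10), which lay above Lmx1b, then the neurotrophin receptor Ntrk2 (5.37), Rprm (5.29), the matrix gene Postn (5.17), Adamts18 (4.95), Sparcl1 (4.88), Ntm (4.79) and C130021I20Rik (-4.73). Over the 13430 genes tested in both, 6078 were called the same way in NP and SP cells and 606 in opposite ways; the iNP and iSP share a cell line, and the embryonic cells a strain.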

How the data were processed

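RNA was sequenced from 36 libraries, of which the 4 iNP and 4 E11.5 NP libraries carried the main comparison. The authors deposited a table of normalised signal per gene, normalised CPM, made from reads trimmed with cutadapt and aligned with STAR per the labels. The labels name GRCh38, although the gene identifiers are those of mouse. The counting program, its strand setting and the Ensembl release are not given in the sources used here. Dividing each value by that of 1 read gave whole reads for 100% of values within 1e-06, and edgeR on these reads called 9114 genes. The second deposited table holds the authors' own fold changes and p-values and was not used. No column of per-sample values was left unmapped.

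A gene entered the test if at least 4 of the 8 libraries reached a value of 1, and limma 3.58.1 (R 4.3.3) was fitted to log2(value + 1) without covariates, followed by Benjamini-Hochberg adjustment. The difference from SP cells was fitted over 16 libraries. The steps were tested on simulated data. Alternatives were edgeR 4.0.16, DESeq2 1.42.0, pseudocount 0.1, other scalings, no filter, E12.5 NP as comparator, the replicate number as a block and each library left out. E12.5 NP without replicate 1 and without replicate 2 were added after seeing the data. Exonic lengths and chromosomes came from GENCODE vM21 (GRCm38), which matched 22649 of 22761 identifiers. The members of the comparison and all gene lists were chosen with earlier results of these data known. Genes were named by a rule: in each list the 6 called members with the largest change and the 3 with the highest level, the 15 largest changes in each direction, the 10 largest differences from SP cells, and all progenitor genes. Pax8, Trp53 and Tmem178 were named after their values were seen. A few genes that the rule names are not reported here, although they remain in the counts of their lists.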

Additional observations from a re-analysis of the deposited data

Results flagged for a closer look

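Within the groups of 4, the library farthest from the nearest other one was compared with Dixon's 95% limit on the log2(CPM + 1) scale for every gene named in the text, in 404 groups of values, of which chance alone flags about 1 in 20. In 52 of them a library stood apart, and in 32 it was iNP replicate 2 and in 13 E11.5 NP replicate 1. The values below are the CPM of the library that stood apart. Library iNP replicate 2 was the lowest of its group in Bmpr2 (31.9), Cdh11 (116), Cdh2 (119.7), Col14a1 (174), Col4a2 (297), Dnmt1 (271), Egr1 (200.3), Itga8 (75.5), Lama4 (100.5), Lamb1 (445), Lhx1 (23.1), Lrp6 (73.3), Nid2 (294), Notch3 (135), Osr1 (34.4), Postn (19.6), Ror1 (14.7), Sema3d (5.25), Sox5 (8.98) and mt-Nd5 (221). Library iNP replicate 2 was the highest of its group in Aldoa (3166), Aldoc (65.0), Atf4 (207), Gpc3 (1229), Hes5 (7.15), Hoxb7 (51.7), Id1 (228), Igfbp2 (528), Pgk1 (847), Pkm (4340), Rps18 (1519) and Sgce (65.3). E11.5 NP replicate 1 was the highest of its group in Bnip3 (16.7), Dll1 (8.34), Nes (367), Pax3 (2.26), Rgs5 (4.75), Sox1 (0.0779) and Tet3 (371). E11.5 NP replicate 1 was the lowest of its group in Bmp2 (8.03), Cdk1 (53.8), Fgf20 (3.7), Fzd4 (157), Myc (186) and Trp53 (269). E11.5 NP replicate 4 was the highest of its group in Hba-x (18.7), Hbb-y (44.4) and Kremen1 (158). Library iNP replicate 1 was the lowest of its group in Dusp6 (112) and Etv4 (142). E11.5 NP replicate 2 was the highest of its group in Rps18 (349.9). E11.5 NP replicate 3 was the highest of its group in Cyp26a1 (0.0853).

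The change from E11.5 NP to iNP was set against the change from E11.5 SP to iSP in a fit of 16 libraries, and the difference was called (limma, adjusted p under 0.05) for 132 of the genes named in the text. A positive value means that the log2 change was larger, or less negative, in NP cells. The genes named were chosen in part for large changes, so their share says nothing of all genes. The values for hypoxia genes were 0.81 for Adm, -0.76 for Car9, 1.14 for Egln3 and 0.76 for Slc2a1. Over all 27 hypoxia genes tested, the difference was positive in 4 and negative in 8. For immediate early genes they were 1.57 for Atf3, 1.54 for Egr1, 1.05 for Fos, 1.83 for Fosb, 2.14 for Ier3 and -1.02 for Myc. Of the early nephron genes, it was 3.23 for Bmp2, 2.94 for Ccnd1, -1.14 for Cdh4, 2.31 for Clec18a, 2.36 for Dll1, 1.98 for Hes5, 3.32 for Jag1, 2.49 for Lhx1 and 2.69 for Pou3f3. The values for nephron progenitor signals and surface genes were -2.81 for Bmp7, -1.79 for Cited1, -3.14 for Crym, -1.94 for Fgf20, 1.55 for Fgf9, -2.68 for Gas1, 1.84 for Gdnf, 1.33 for Gpc3, -4.36 for Rspo1, -3.10 for Spock2 and -1.12 for Traf1. For ureteric bud genes they were 3.11 for Cdh1, 1.998 for Epcam, 1.52 for Etv5, 0.85 for Hoxb7, 4.59 for Ret and 1.35 for Wnt11. Of the renal stroma genes, it was 3.30 for Col3a1, 6.37 for Ecm1, 1.703 for Foxd1, 2.90 for Pdgfra, 3.17 for Pdgfrb, 5.17 for Postn and 1.51 for Twist1. Epcam, Ret and Pdgfra were used for the gates, so their values are no finding. The values for neural genes were -3.19 for Dcx, -2.89 for Lhx2, 1.27 for Nes, 2.75 for Sox1, 2.35 for Sox10, 3.42 for Sox2 and -1.75 for Zic1. For Wnt antagonists they were 1.78 for Dkk1, -0.74 for Kremen1, 2.50 for Notum and 2.62 for Sfrp2. Of the Fgf target genes, it was 2.22 for Dusp6, 0.67 for Spry1, 1.51 for Spry2 and 1.99 for Spry4. The values for nephron progenitor transcription factors were -1.37 for Eya1, -0.95 for Hoxa11, -2.0 for Hoxc11, -2.46 for Meox1, -1.46 for Osr1, -1.49 for Pax2, 1.29 for Sall1, -1.54 for Six2, -1.33 for Six4, -2.49 for Uncx and -0.96 for Wt1. For early and paraxial mesoderm genes they were 2.0 for Foxc1, 2.21 for Pax3 and 1.90 for Tcf15. Of the imprinted genes, it was 0.99 for Peg13, 2.09 for Plagl1 and 1.74 for Sgce. Among the remaining genes it was 4.95 for Adamts18, -4.73 for C130021I20Rik, 2.07 for Col14a1, 2.40 for Col1a2, 0.78 for Col4a1, 0.79 for Col4a2, 3.66 for Fgf15, -0.72 for Foxo3 and -0.97 for Foxp1. It was 2.50 for Foxp2, -0.53 for Hoxa10, -0.77 for Hoxc10, -0.77 for Hprt, 1.44 for Lamb1, -5.49 for Lmx1b, 4.79 for Ntm, 5.37 for Ntrk2 and 6.10 for Rgs5. It was 5.29 for Rprm, 1.19 for Sema3a, -1.44 for Sema3d, -1.14 for Sox4, 4.88 for Sparcl1, -0.50 for Trp53, 3.27 for Wnt1, 2.48 for Wnt3a and 1.03 for Wnt6. It was -0.85 for mt-Nd2, 3.24 for Bmp4, 4.65 for Bmp5, 0.92 for Cdk1, 2.22 for Cdkn1a, -0.81 for Cdt1, -0.43 for Mcm4, 2.88 for Crabp1 and 2.03 for Cyp26a1. It was 3.85 for Fst, 2.14 for Grem1, 1.21 for Fzd10, 1.25 for Ror1, 2.83 for Gli1, 3.49 for Hba-x, 3.83 for Hbb-y, -0.66 for Hells and 0.999 for Zfp57. It was 2.13 for Hspa1a, 0.90 for Id3, 1.80 for Ifitm3, 3.18 for Igfbp3, 1.38 for Kdr, 0.82 for Myog, 2.11 for Nid2, 1.11 for Notch3 and 2.29 for Nrarp. It was 1.61 for Pfkp, 1.49 for Rnf43 and 2.51 for Sox5.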

How the results depend on the processing

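Between iNP and E11.5 NP 9102 genes were called, and 8296 to 10285 when any one library was left out, the highest without iNP replicate 2. For the difference from stromal progenitors the count was 4344, and 3782 to 5131. When the test asked for a log2 change beyond 1, 1260 genes were called (856 higher and 404 lower). The numbers of calls with edgeR or DESeq2 on recovered reads, pseudocount 0.1, no filter on low values, quantile or upper-quartile scaling, the length trend removed, all 36 libraries in the fit, or E12.5 NP as the comparator (6237; 6199 without its replicate 1 and 6818 without its replicate 2, alternatives chosen after seeing the data) were within 1.5 times the count. The share of higher calls among differences from SP cells went from 59.5% to 47.7% under quantile normalisation, and the cause was not tested.

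The replicate numbers did not pair the iNP with the E11.5 NP samples, and correlations of NP with SP libraries were not examined. Same-numbered iNP and E11.5 NP libraries had correlations of deviations of 0.043, 0.227, -0.161 and 0.138. A replicate block in the model gave 8937 calls, and 4180 for the difference from SP cells.

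Of 202 genes named in the text and tested, 160 kept their direction and side of the threshold under every alternative run for them, at most 18, and 191 did so when each iNP or E11.5 NP library was left out. Calls were lost under quantile normalisation in Bmp7, Hoxa10, Nes, Pecam1, Ret and Sall1, in the fit of all 36 libraries in Eya1, Gdnf, Hoxa10, Hoxc10, Meox1, Nes, Osr1, Pecam1, Sall1, Uncx and Wt1, with edgeR or DESeq2 in Pecam1 and Sall4, without the filter in Cdh4, Pecam1 and Sall1, with pseudocount 0.1 in Pecam1 and under upper-quartile scaling in Sall1. With E12.5 NP as the comparator 19 lost the call in the same direction and 3 turned, Cdh4 to -0.014, Fgf8 to -0.12 and Fst to 0.015, none of them called. Lists with more higher than lower calls numbered 46, and 42 to 50 under the alternatives. Fatty acid synthesis genes (3 higher, 4 lower) turned to 5 and 0 against E12.5 NP, 3 and 1 under quantile normalisation, 4 and 2 under upper-quartile scaling and 4 and 3 without E11.5 NP replicate 3, proteasome genes (1 and 5) to 8 and 1 and channel genes (25 and 18) to 19 and 22 under quantile normalisation. Values under about 0.128 CPM rest on 3 reads or fewer, and intervals for them were not formed.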

Other observations

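Gene lists that were not described above are given as counts against E11.5 NP, beside backgrounds of 35.5% higher and 29.2% lower, and against E12.5 NP, beside 25.6% and 18.7%. Where at least 10% of a list reached the minimum value of 1 in no library of a group, the number tested through the other group alone is given. Tgf-beta and activin genes counted 7 higher and 4 lower of 13, with a median of 0.41, and 8 and 1 of 13 against E12.5 NP. Bmp ligands and receptors counted 5 higher and 6 lower of 14, with a median of -0.14, and 3 and 6 of 15 against E12.5 NP. Bmp target genes counted 5 higher and 3 lower of 11, with a median of 0.33, and 3 and 0 of 11 against E12.5 NP. Fgf receptors counted 0 higher and 2 lower of 5, with a median of -0.32, and 0 and 2 of 5 against E12.5 NP. Proteoglycan and matrix genes counted 17 higher and 5 lower of 31, with a median of 0.71, and 9 and 4 of 31 against E12.5 NP. Cadherin genes counted 9 higher and 2 lower of 14 (2 through iNP alone), with a median of 0.91, and 6 and 3 of 14 against E12.5 NP. Keratin and claudin genes counted 6 higher and 2 lower of 16 (2 through iNP alone), with a median of 0.22, and 6 and 1 of 15 against E12.5 NP. Cartilage and tendon genes counted 3 higher and 1 lower of 7, with a median of 0.19, and 3 and 1 of 6 against E12.5 NP. Heart, gonad and endoderm genes counted 3 higher and 0 lower of 4 (1 through iNP alone), with a median of 0.77, and 4 and 0 of 4 against E12.5 NP. T-box genes counted 4 higher and 1 lower of 5 (1 through iNP alone and 1 through E11.5 NP alone), with a median of 1.29, and 4 and 1 of 5 against E12.5 NP. Germline genes counted 2 higher and 0 lower of 3 (1 through iNP alone), with a median of 0.84, and 2 and 0 of 3 against E12.5 NP. DNA methylation genes counted 2 higher and 5 lower of 12 (3 and 8 without iNP replicate 2), with a median of -0.37, and 2 and 3 of 12 against E12.5 NP. Cell cycle inhibitors counted 6 higher and 3 lower of 11 (2 through iNP alone), with a median of 0.44, and 3 and 1 of 11 against E12.5 NP. Proteasome genes counted 1 higher and 5 lower of 35 (1 and 14 without iNP replicate 2), with a median of 0.026, and 1 and 3 of 35 against E12.5 NP. Metal and iron genes counted 2 higher and 5 lower of 10, with a median of -0.33, and 2 and 3 of 10 against E12.5 NP. Selenoprotein genes counted 2 higher and 1 lower of 7 (4 and 1 without iNP replicate 2), with a median of 0.29, and 2 and 0 of 7 against E12.5 NP. Solute carrier genes counted 93 higher and 56 lower of 210, with a median of 0.23, and 62 and 45 of 210 against E12.5 NP. Potassium, sodium and calcium channel genes counted 25 higher and 18 lower of 57 (7 through iNP alone), with a median of 0.26, and 25 and 11 of 56 against E12.5 NP. Riken genes counted 197 higher and 98 lower of 469, with a median of 0.23, and 132 and 99 of 494 against E12.5 NP.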
